A study of Mus musculus with 15 samples.

Results

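The step from day 2 to day 4 of RANKL culture in RAW 264.7 cells was followed on 4 of the 15 arrays of the series: 2 arrays of RANKL day 2, labelled mononuclear, and 2 arrays of RANKL day 4, labelled multi-nuclear. The arrays were chosen by their titles, and no measured value entered the choice. RAW 264.7 is an established mouse line of macrophage-like cells that forms osteoclast-like cells when given RANKL, the osteoclast-inducing cytokine. Beside them stand the 4 control arrays of the same days, of cells grown without RANKL and labelled mononuclear. All cells grew in alphaMEM with serum; fresh serum-free medium, with or without RANKL, was added on days 0 and 3. The day 2 arrays were therefore taken 2 days after the last dose and the day 4 arrays 1 day after it, in both treatments, so that between these days time in culture and time since fresh medium cannot be told apart. No RANKL array of day 3 was used. Whether the 2 arrays of a group stem from different cultures is not stated, and the tests may therefore reflect only technical variation between arrays. Total RNA was hybridised to Affymetrix arrays, and the values are probe set signals scaled to a common mean.

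Osteoclasts form from macrophage precursors. RANKL binds its receptor RANK and, through TRAF adaptors, NF-kB, AP-1 and calcium signals, raises the transcription factor NFATc1, which drives genes for bone resorption such as those of cathepsin K and tartrate-resistant acid phosphatase. The precursors stop dividing, fuse into cells with many nuclei, and build a ring of actin-rich podosomes around an acidified space into which proteases are released.

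Array quality was similar between the days. Over the 15 arrays the median signal was between 103 and 149 units, and the replicate correlation of log2 signals was 0.977 at RANKL day 2 and 0.976 at RANKL day 4. The ratio of the 3′ to the 5′ beta-actin control probe sets, a measure of RNA integrity that rises as RNA degrades, was 1.25 and 1.39 at RANKL day 2 and 1.18 and 1.34 at RANKL day 4. Array 2 of RANKL day 2 had the highest of these ratios among all arrays. Over the 8 arrays of both days, principal component 1, with 44.1% of the variance, separated the days: the day 2 arrays of both treatments lay between -42.8 and -14.7 and the day 4 arrays between 23.6 and 31.4. The second component, with 15.2%, separated the treatments.

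Between day 2 and day 4 of RANKL culture, 13 of 41 macrophage markers and 20 of 42 lysosomal genes rose. None fell in either list. Of 19 genes of bone resorption, 7 rose and 1 fell. In the other direction, 31 of 54 genes of DNA replication and 26 of 50 of mitosis and cytokinesis fell. So did 14 of 32 proteasome genes and 14 of 42 in the ribosome biogenesis and nucleolus list. No gene rose in these 4 lists. The proteasome count was 2 without array 2 of RANKL day 2. Of 8251 genes, 709 were higher at day 4 (8.59%) and 532 were lower (6.45%) past the threshold. The test was limma's moderated test with Benjamini-Hochberg adjustment over 12422 probe sets at 0.05, and it called 1556 probe sets, 12.5% of them. Without array 2 of RANKL day 2 the call was 541 probe sets, without array 2 of RANKL day 4 it was 877, and with the 4 RANKL arrays fitted alone it was 853. Leaving out any RANKL array leaves a single array in its group, and fewer calls were then made over all genes. A lower list count in such a fit is therefore not by itself a trait of the list. The median change over all genes was -0.03 on the log2 scale. Changes are differences of log2(signal + 32) given with limma's standard error, and the added 32 understates the change of dim genes. In bulk RNA, fewer cells of a type and less RNA per cell cannot be told apart.

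The largest rise was that of Mpeg1, the pore-forming macrophage protein perforin-2. Its signal was 338 and 295 on the RANKL day 2 arrays and 9910.5 and 8266 on the RANKL day 4 arrays. In control cells it was 2828 and 3202 at day 2 and 9687 and 10843 at day 4. The RANKL day 2 arrays thus stood below every other array of the 2 days, and the day 4 levels of the treatments overlapped. The change in RANKL cells was 4.71 ± 0.73 (limma adjusted p = 0.0024), a 26.1-fold rise on this scale, against 1.76 (limma adjusted p = 0.223) in control cells.

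Itgam, the CD11b chain of the macrophage integrin Mac-1, showed the same order. RANKL cells gave 42.4 and 46.2 at day 2 and 1154 and 590.0 at day 4, a change of 3.49 ± 0.32 (limma adjusted p = 0.000344). Control cells went from 205 and 297 to 1218 and 1385, a change of 2.25 that also passed. The days did not overlap in either treatment, and RANKL day 2 was the lowest group.

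Adgre1, the F4/80 macrophage antigen, had the smallest adjusted p of all (0.000104 by limma). Its RANKL signals were 182 and 162 at day 2 and 1178 and 1024 at day 4, a rise of 2.47 ± 0.18, beside 1.48 in control cells. Fcgr2b, the inhibitory IgG receptor, rose by 2.79 ± 0.25, from 116 and 114 to 927 and 1049.5, with 2.12 in control cells. Both genes were lowest at RANKL day 2 and did not overlap between days.

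Of 41 macrophage marker genes on the array, 13 rose and none fell in RANKL cells, with a median change of 0.66. In control cells 5 rose and 1 fell, with a median of 0.36. Counts in control cells rest on each of the 4 control arrays: leaving out 1 brought the 555 probe sets called there (4.47%) to between 36 and 189, and the 6 macrophage calls to 2 or 3. The summed signal of the 41 genes was 73198 to 91786 on the RANKL day 2 arrays and 114893 to 114979 on the RANKL day 4 arrays. It was 97045 to 102936 in control cells at day 2 and 112087 to 114277 at day 4. RANKL cells were below control cells at day 2. At day 4 their sums were above those of control cells by less than the spread between the RANKL day 2 arrays. A sum of signals weighs bright genes most. Single markers differed from it at day 4, where Itgam was lower with RANKL than without it and Mpeg1 overlapped. Among the genes that rose were C3ar1, the receptor for complement fragment C3a (2.44 ± 0.40), Cybb, the membrane subunit of the phagocyte oxidase (2.30 ± 0.55), and Msr1, a scavenger receptor (2.00 ± 0.31). These 3 were chosen after their values were seen. Csf1r, the receptor for the macrophage growth factor M-CSF, gave 6753 and 6763 at day 2 and 9776 and 10956 at day 4, a change of 0.61 that did not pass (limma adjusted p = 0.0745).

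**Figure D1:**
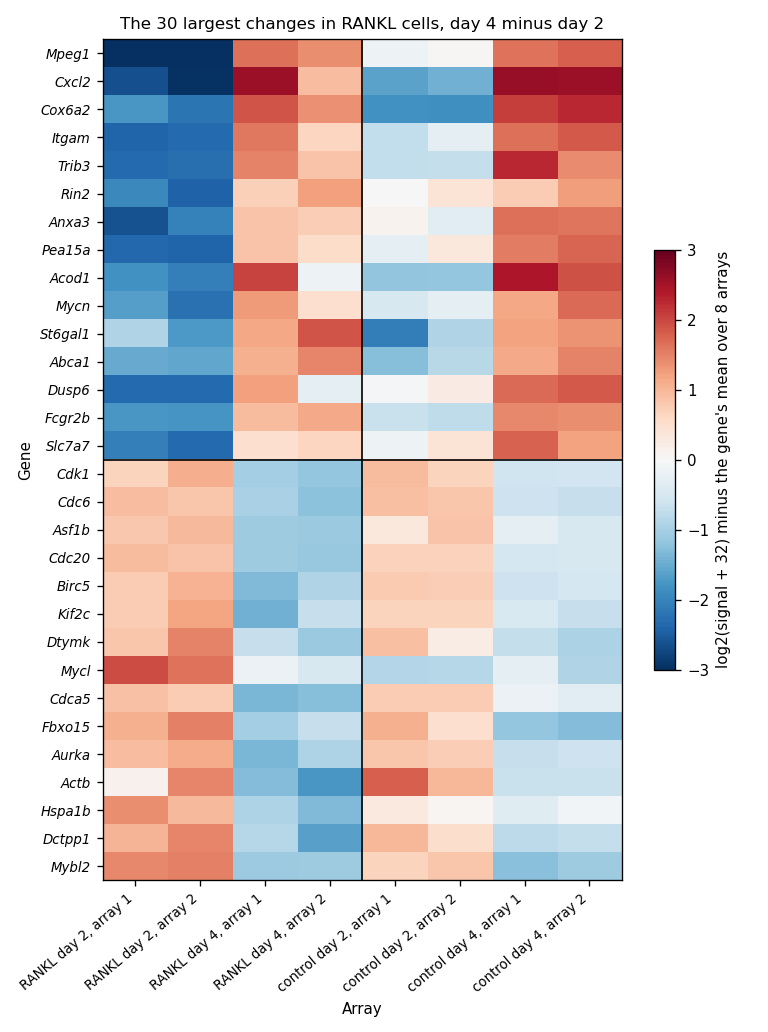
Level of the 15 largest rises (top) and 15 largest falls (bottom) in RANKL cells on each of the 8 arrays of days 2 and 4, as log2(signal + 32) minus the gene's mean over these arrays. Colours end at 3 in either direction, red is above and blue below the mean. Most genes change the same way in the control arrays on the right, and the deepest blues of the rising genes lie at RANKL day 2.

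The remainder of the 15 largest rises belonged to several kinds of gene. Rin2, which activates the endosomal GTPase Rab5, went from 259 and 173 to 1775 and 2559.9, a change of 3.15 ± 0.35, with 0.80 in control cells (limma adjusted p = 0.25). Anxa3, a phospholipid-binding annexin, rose by 3.11 ± 0.31, and Pea15a, an ERK-binding adaptor, by 3.09 ± 0.36. Dusp6, a phosphatase of ERK, rose by 2.80 ± 0.45, from 59.7 and 60.7 to 1057 and 344.

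Cxcl2, a neutrophil-attracting chemokine, read 60.6 and 41.5 at RANKL day 2 and 3364 and 1071 at RANKL day 4, a change of 4.55 ± 1.15 (limma adjusted p = 0.0241). Its control signals rose as steeply, from 158 and 181 to 3497 and 3379, and its call was lost without array 1 or 2 of RANKL day 2 (4.72 and 4.39) or array 1 of RANKL day 4 (3.74). Acod1, the enzyme that makes itaconate, rose by 2.88 ± 0.56 in RANKL cells and by 3.36 in control cells. Its 2 RANKL day 4 arrays were far apart, at 2033 and 419.8, while both stood above the 109.9 and 89.0 of day 2.

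Trib3, a pseudokinase of the stress response, rose by 3.48 ± 0.73. Abca1, the cholesterol exporter, rose by 2.80 ± 0.56, and Slc7a7, a basic amino acid transporter, by 2.75 ± 0.71. Cox6a2, a subunit form of cytochrome c oxidase known from muscle, rose by 3.59 ± 0.84, with 3.98 in control cells. Leaving out array 2 of RANKL day 2 ended the calls of Trib3, Abca1, Slc7a7, Cox6a2 and Acod1, whose changes were then 3.51, 2.78, 2.62, 3.37 and 2.77. Leaving out any of the other 3 RANKL arrays ended those of Slc7a7 and Cox6a2 as well, with changes of 2.68 to 2.89 and 3.33 to 3.84, and that of Trib3 was lost without array 1 of RANKL day 4 (3.17) and that of Abca1 without array 2 of RANKL day 4 (2.60). St6gal1, a sialyltransferase, and Mycn, a Myc family factor, rose by 2.83 each; another probe set of Mycn had the opposite sign.

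Lysosomal genes rose without a fall. Of 42 represented, 20 rose and none fell in RANKL cells, with a median of 0.65, beside 8 rises, no fall and a median of 0.47 in control cells (0 to 3 rises with 1 control array left out). The count was 13 without array 2 of RANKL day 2. Lamp2, a major glycoprotein of the lysosomal membrane, went from 537 and 382 to 2627 and 3113 in RANKL cells, a change of 2.57 ± 0.25 (limma adjusted p = 0.000444). Control cells went from 1059 and 1086 to 2128 and 3741. RANKL day 2 was below control day 2, and the day 4 arrays of the treatments overlapped.

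Hydrolases were among the rises. Idua, which cleaves the sugar chains of dermatan and heparan sulfate, rose by 1.53 ± 0.32, Hexa, a subunit of beta-hexosaminidase, by 1.29 ± 0.17, and Naglu, which acts on heparan sulfate, by 1.29 ± 0.19. The same 3 rose by 1.30, 1.16 and 1.32 in control cells. The Idua call was lost without array 2 of RANKL day 2 (1.41) or array 2 of RANKL day 4 (1.45). Cathepsin genes rose too: Ctsd by 1.13 ± 0.20, Ctsl by 1.16 ± 0.19, Ctss by 1.00 ± 0.26 and Ctsb by 0.99 ± 0.23, while in control cells their changes were between 0.33 and 0.64 and none passed. The cathepsins were chosen after their values were seen, and 1 other probe set of Ctsb had the opposite sign.

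The letters CACGTG, the E-box core bound by factors of the MiT family that govern lysosomal genes, were searched on both strands of RefSeq promoters (GRCm38.p6, 250 bases before to 50 after each start; the motif reads the same on both strands). They were in 11 of 35 lysosomal genes with a promoter searched (31.4%) and in 5 of the 16 of these that rose. Of the 6576 genes on the array with a promoter searched, 753 held them (11.5%). Of the 4 lysosomal genes with the largest rises, Naglu alone held a match; its promoter, chr11:101069844-101070143 on the plus strand, is shown with the match in capitals, 73 bases before the start.
Naglu: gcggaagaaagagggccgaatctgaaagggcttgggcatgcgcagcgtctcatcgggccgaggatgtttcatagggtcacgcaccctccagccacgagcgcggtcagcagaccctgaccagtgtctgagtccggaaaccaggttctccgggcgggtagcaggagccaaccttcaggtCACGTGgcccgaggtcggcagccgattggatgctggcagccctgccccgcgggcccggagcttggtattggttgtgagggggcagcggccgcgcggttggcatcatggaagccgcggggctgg
The match is a run of letters and not a measured binding site.

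The V-ATPase pumps protons into lysosomes and the resorption space, and 4 of its 15 represented genes rose while none fell; 2 did so without array 1 or 2 of RANKL day 2 or array 2 of RANKL day 4. Tcirg1, the a3 subunit of the osteoclast pump, went from 3101 and 2473 to 5355 and 7419, a rise of 1.18 ± 0.21 (limma adjusted p = 0.00425). In control cells its change was 0.33 (limma adjusted p = 0.478). Atp6v1d rose by 0.98 ± 0.22, Atp6v1e1 by 0.71 ± 0.14 and Atp6v0a1 by 1.16 ± 0.33. The call of Atp6v0a1 was lost in 9 of 14 alternatives, among them each left-out RANKL array (0.90 to 1.41), and its other probe set had the opposite sign. Atp6v1e1 lost its call without array 2 of RANKL day 2 (0.68), and Atp6v1d without array 1 of RANKL day 2 (0.80) or array 2 of RANKL day 4 (0.77).

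The genes of bone resorption moved less uniformly. Of 19 represented, 7 rose and 1 fell in RANKL cells, and 1 rose and 4 fell in control cells. The medians were 0.27 and -0.05. Leaving out array 2 of RANKL day 2 left 4 of the 8 calls, and leaving out array 2 of RANKL day 4 left 5.

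Ctsk, the collagen-degrading protease cathepsin K, gave 1051 and 1309.6 at RANKL day 2 and 2703 and 3586 at RANKL day 4. Control signals were 285 and 204 at day 2 and 231 and 252 at day 4. RANKL cells stood above control cells on both days, and only their days were apart. The rise was 1.38 ± 0.26 (limma adjusted p = 0.00527) with -0.003 in control cells, and the difference of 1.39 did not pass (limma adjusted p = 0.395).

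Acp5, tartrate-resistant acid phosphatase, was already high at RANKL day 2, with 5066 and 6914, and gave 6187 and 8863 at day 4. The groups overlapped, and the change of 0.32 ± 0.36 did not pass (limma adjusted p = 0.668). Control cells were at 257 and 90.6 at day 2 and 89.4 and 74.1 at day 4.

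Mmp9, a gelatinase, rose in both treatments. RANKL cells went from 709 and 628 to 4576 and 3379, a change of 2.50 ± 0.51 (limma adjusted p = 0.0092). Control cells went from 155 and 12.8 to 665 and 432, a change of 2.64 that passed at lower signals. Of the genes around the acid space, Snx10, a sorting nexin needed for resorption, rose by 1.30 ± 0.23, Acp2, lysosomal acid phosphatase, by 1.28 ± 0.31, and Clcn7, the chloride-proton exchanger, by 0.87 ± 0.20. The calls of Mmp9, Snx10, Acp2 and Clcn7 were lost without array 2 of RANKL day 2, with changes of 2.42, 1.07, 1.17 and 0.67. Mmp9 also lost its call without array 1 of RANKL day 4 (2.29), and Acp2 and Clcn7 without array 2 of RANKL day 4 (1.11 and 0.68). Car2, the carbonic anhydrase that supplies protons, fell from 7221 and 7518 to 3830 and 3119, a change of -1.08 ± 0.19, and it fell in control cells by 1.46. Calcr, the calcitonin receptor, and Itgb3, the beta3 integrin chain, were dim, with highest signals of 5.2 and 38.5 on the 8 arrays.

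Cell fusion genes included 8 that rose and none that fell among 23, with a median of 0.15. The count was 5 without array 2 of RANKL day 2, and without array 2 of RANKL day 4 it was 4. Ccl2, the monocyte chemokine MCP-1, went from 291 and 363 to 1723 and 1285, a rise of 2.09 ± 0.25 (limma adjusted p = 0.000698), while control cells stayed between 475 and 710.1 (change 0.19). Pstpip1, a membrane-bending adaptor, rose by 1.74 ± 0.25, and Cd47, a surface protein of the immunoglobulin superfamily, by 1.64 ± 0.17. Cxcr4, a chemokine receptor, rose by 1.51 ± 0.43, from 30.5 and 28.4 to 74.8 and 254.6. The Cxcr4 call was lost in 6 of 14 alternatives, and without array 2 of RANKL day 4 its change was 0.80. Cd47 rose by 1.48 in control cells as well. Cd9 and Cd44, surface proteins linked to fusion, changed by 0.20 and -0.34, and neither passed.

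Among 61 podosome and cytoskeleton genes, 13 rose and 6 fell in RANKL cells, against 2 rises and 3 falls in control cells. Without array 2 of RANKL day 2 there were 8 calls and without array 2 of RANKL day 4 there were 10. Vcl, vinculin, an adhesion protein that links integrins to actin, went from 574 and 453 to 1270 and 1776, a rise of 1.50 ± 0.23 (limma adjusted p = 0.00213). Evl, an actin-assembly protein, rose by 1.94 ± 0.38 from signals of 33.8 and 34.9, and Myo10, a filopodial myosin, by 1.36 ± 0.32. The calls of Evl (1.96) and Myo10 (0.93) were lost without array 2 of RANKL day 2, and without array 2 of RANKL day 4 that of Myo10 (1.06). The falls included the tubulin genes Tuba1a (-1.07 ± 0.18) and Tuba4a (-0.90 ± 0.20) and Stmn1, a microtubule destabiliser (-1.10 ± 0.18), which were chosen after their values were seen.

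The probe set annotated as Actb fell from 1861 and 4745 to 676 and 489, a change of -2.31 ± 0.37, and fell by 2.06 in control cells. The manufacturer's 3′ beta-actin control probe set gave 19510 and 31592 at RANKL day 2 and 22689 and 25465 at RANKL day 4, so the days overlapped there. The annotated probe set is not read here as the level of beta-actin.

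Integrin genes outside Itgam showed further rises. Itgax, the CD11c chain, went from 325 and 327 to 1297 and 1744 in RANKL cells, a rise of 2.10 ± 0.29 (limma adjusted p = 0.0013), and from 471 and 601 to 301 and 352 in control cells. Itgb5, which pairs with the alpha-v chain, rose by 1.82 ± 0.35 with 0.20 in control cells. Itgav, the alpha-v chain itself, changed by 0.27 in RANKL cells and fell by 1.30 in control cells, but its 2 other probe sets had the opposite sign in RANKL cells.

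Regulators of osteoclast formation changed in both directions. Nfatc1, the master factor, gave 5340.3 and 4632 at RANKL day 2 and 3075 and 4291 at day 4, a change of -0.45 ± 0.37 that did not pass (limma adjusted p = 0.52). In control cells it fell by 1.52, to 541 and 380.4. Fos, an AP-1 subunit, changed by 0.11 and Tnfrsf11a, the receptor RANK, by -0.12, with overlapping days in both. Of 26 osteoclast transcription factors, 4 rose and 2 fell, and each of 3 left-out arrays brought the 6 calls to 3 (array 1 or 2 of RANKL day 2, or array 2 of RANKL day 4).

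Tfeb, a MiT factor of lysosomal genes, rose by 2.16 ± 0.43 from 23.0 and 28.3 to 239.6 and 210.0, and Bhlhe40, a repressor, by 1.43 ± 0.23. The Tfeb call was lost without array 2 of RANKL day 2 (2.22). Prdm1, which encodes the repressor Blimp1, rose by 1.19 ± 0.32 and Mitf by 0.87 ± 0.25, but these calls were lost in 6 of 13 and 9 of 14 alternatives. Prdm1 lost its call without array 1 or 2 of RANKL day 2 or array 2 of RANKL day 4 (0.89 to 1.26), and Mitf with each RANKL array left out (0.70 to 1.04). Mycl, a Myc family factor, fell from 355 and 278 to 56.6 and 39.9, a change of -2.12 ± 0.54 whose call was lost with each RANKL array left out (-2.28 to -1.96). In control cells its highest signal was 50.6.

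Restrainers of osteoclast formation were among the rises. Of 21 represented, 5 rose and none fell in RANKL cells, with a median of 0.41, and 3 rose and 3 fell in control cells. Irf8, a macrophage transcription factor that holds back NFATc1, went from 206 and 107 to 1066 and 784, a rise of 2.38 ± 0.39 (limma adjusted p = 0.00319), with 0.86 in control cells (limma adjusted p = 0.282). Its RANKL day 4 signals lay within the span of the control day 2 values, 684 and 1068. Rbpj, the Notch pathway factor, rose by 1.87 ± 0.26, Sirpa, a receptor for CD47, by 1.50 ± 0.20, and Ptpn6, the phosphatase SHP-1, by 1.00 ± 0.16. Bcl6, a repressor, changed by 0.59 and did not pass.

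Calls in the RANK and NF-kB pathway were about as frequent as over all genes, where 8.59% rose and 6.45% fell. Of its 28 genes, 2 rose and 3 fell. Leaving out array 2 of RANKL day 2 or array 2 of RANKL day 4 left 2 calls. Nfkb2, the p100 precursor of the alternative pathway, fell from 1536 and 1397 to 771 and 699, a change of -0.97 ± 0.18 (limma adjusted p = 0.00492), with 0.29 in control cells. The TRAF genes parted: Traf1 fell by 1.63 ± 0.37 and Traf2 by 0.88 ± 0.16, while Traf5 rose by 1.95 ± 0.39. Traf6, the main adaptor of RANK, changed by 0.49 and did not pass, and 1 of its 2 other probe sets had the opposite sign. Pik3r1, a PI3-kinase subunit, was the other rise, from 45.0 and 6.1 to 107 and 109. Traf1, Traf5 and Pik3r1 lost their calls without array 2 of RANKL day 2 (-1.70, 1.37 and 0.86) or array 2 of RANKL day 4 (-1.47, 1.74 and 1.36), Traf1 also without array 1 of RANKL day 2 (-1.55) and Pik3r1 without array 1 of RANKL day 4 (1.38).

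ITAM and calcium signalling, the costimulatory arm of NFATc1 induction, had 6 rises and no fall among 21 genes. Vav1, a Rac activator, rose by 1.61 ± 0.27, Itpr2, a calcium release channel, by 1.56 ± 0.33, Ppp3ca, the calcineurin catalytic subunit, by 1.28 ± 0.23, and Lcp2, the adaptor SLP-76, by 1.07 ± 0.21. Vav1 and Lcp2 also rose in control cells (1.35 each), and 2 of the 3 other probe sets of Itpr2 had the opposite sign. Without array 2 of RANKL day 2 the count was 3, and without array 1 of RANKL day 4 it was 2; Itpr2 (1.21 and 1.45) and Lcp2 (1.06 and 0.82) lost their calls in both cases.

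The falls were most frequent in 2 lists of the cell cycle. Of 54 DNA replication genes, 31 fell and none rose, with a median of -0.97. Of 50 genes of mitosis and cytokinesis, 26 fell and none rose, with a median of -0.97 as well. Control cells had 23 and 12 falls in these lists and medians of -0.76 and -0.67, and 22 and 12 genes fell in both treatments. With 1 control array left out, the control falls were 1 to 6 and 0 to 4. Without array 2 of RANKL day 2 the RANKL counts were 19 and 14.

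Cdc20, the activator of the anaphase-promoting complex, gave 6064 and 5677 at RANKL day 2 and 1484 and 1397 at day 4. Control cells gave 5102 and 5103 at day 2 and 2157 and 2249 at day 4. The days were apart in both treatments, and RANKL day 4 was the lowest group. The change in RANKL cells was -2.00 ± 0.17 (limma adjusted p = 0.000298), against -1.20 in control cells.

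Mybl2, the B-Myb factor of late cell cycle genes, had the largest fall of any gene, from 1704 and 1775 to 267 and 273 (-2.55 ± 0.27, limma adjusted p = 0.000589). Aurka, a mitotic spindle kinase, fell by 2.17 ± 0.21, Kif2c, a kinesin that trims microtubules at centromeres, by 2.04 ± 0.26, Birc5, survivin, by 2.01 ± 0.25, and Cdca5, sororin, by 2.13 ± 0.25. Cdk1, the mitotic kinase, fell by 1.96 ± 0.23. Each of these 6 genes also fell in control cells, by 1.02 to 1.92. Fbxo15, an F-box gene known from embryonic stem cells, went from 423 and 592 to 75.1 and 103.6 in RANKL cells (-2.14 ± 0.28) and fell by 2.01 in control cells.

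For DNA synthesis, Asf1b, a histone chaperone, went from 1792 and 2007 to 462 and 446 (-1.99 ± 0.20), and Cdc6, which loads the replicative helicase, from 1400.2 and 1319 to 352 and 291 (-1.98 ± 0.26). Tk1, thymidine kinase, fell by 1.90 ± 0.20, Dtymk, thymidylate kinase, by 2.08 ± 0.27, and Dctpp1, which clears dCTP from the nucleotide pool, by 2.48 ± 0.31. Control cells fell by 0.97 to 1.52 in the same 5 genes. Not each cycle gene moved: Mki67, the Ki-67 proliferation marker, gave 854 and 488 at day 2 and 488 and 985 at day 4, with no separation of the days, and Ccnb2, cyclin B2, changed by -0.63 (limma adjusted p = 0.059). Cdkn1a and Cdkn1b, the p21 and p27 inhibitors of cyclin-dependent kinases, changed by 0.53 and 0.21, and neither passed.

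The promoters of the 4 mitosis genes with the largest falls and a RefSeq promoter are shown because 26 genes of the list fell and none rose, and the letters TTTGAA are the core of the cell cycle homology element. Capitals mark TTTGAA on either strand. Sequences are from RefSeq (GRCm38.p6) and run along the gene's own strand. Aurka is chr2:172370521-172370820, minus strand. Kif2c is chr4:117178723-117179022, minus strand. Birc5 is chr11:117848987-117849286, plus strand. Cdc20 is chr4:118437294-118437593, minus strand.
Aurka: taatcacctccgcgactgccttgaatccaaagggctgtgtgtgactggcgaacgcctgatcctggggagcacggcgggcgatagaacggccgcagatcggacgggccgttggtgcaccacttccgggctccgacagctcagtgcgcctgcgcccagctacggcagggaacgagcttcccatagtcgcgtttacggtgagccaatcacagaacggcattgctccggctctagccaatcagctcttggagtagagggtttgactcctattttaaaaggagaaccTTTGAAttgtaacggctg
Kif2c: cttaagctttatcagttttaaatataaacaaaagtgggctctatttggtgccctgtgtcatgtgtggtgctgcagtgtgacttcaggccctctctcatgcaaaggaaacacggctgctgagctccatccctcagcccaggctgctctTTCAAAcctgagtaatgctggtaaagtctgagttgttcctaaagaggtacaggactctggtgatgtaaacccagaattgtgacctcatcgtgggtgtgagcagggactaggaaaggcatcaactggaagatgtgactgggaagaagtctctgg
Birc5: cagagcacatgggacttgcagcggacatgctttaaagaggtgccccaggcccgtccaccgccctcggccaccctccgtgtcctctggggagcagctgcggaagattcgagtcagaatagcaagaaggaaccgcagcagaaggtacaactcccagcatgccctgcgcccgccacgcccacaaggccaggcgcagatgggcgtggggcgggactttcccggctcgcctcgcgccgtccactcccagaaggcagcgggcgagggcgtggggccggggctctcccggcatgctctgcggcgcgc
Cdc20: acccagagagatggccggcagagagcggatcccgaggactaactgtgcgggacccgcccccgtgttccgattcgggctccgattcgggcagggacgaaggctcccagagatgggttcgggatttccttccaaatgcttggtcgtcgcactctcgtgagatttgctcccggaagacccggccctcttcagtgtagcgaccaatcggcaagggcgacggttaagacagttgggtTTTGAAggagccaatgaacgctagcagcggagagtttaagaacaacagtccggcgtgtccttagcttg
The match lay 32 bases after the start in Aurka, 103 before it in Kif2c and 18 before it in Cdc20, and Birc5 had none in this window. On both strands TTTGAA was found in 26 of the 40 mitosis genes with a promoter searched (65.0%) and in 12 of the 21 of these that fell (57.1%). It was in 8 of 47 DNA replication genes (17.0%) and in 1017 of 6576 genes on the array (15.5%) with a promoter searched. These are counts of letters and do not show that a factor was bound.

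**Figure D2:**
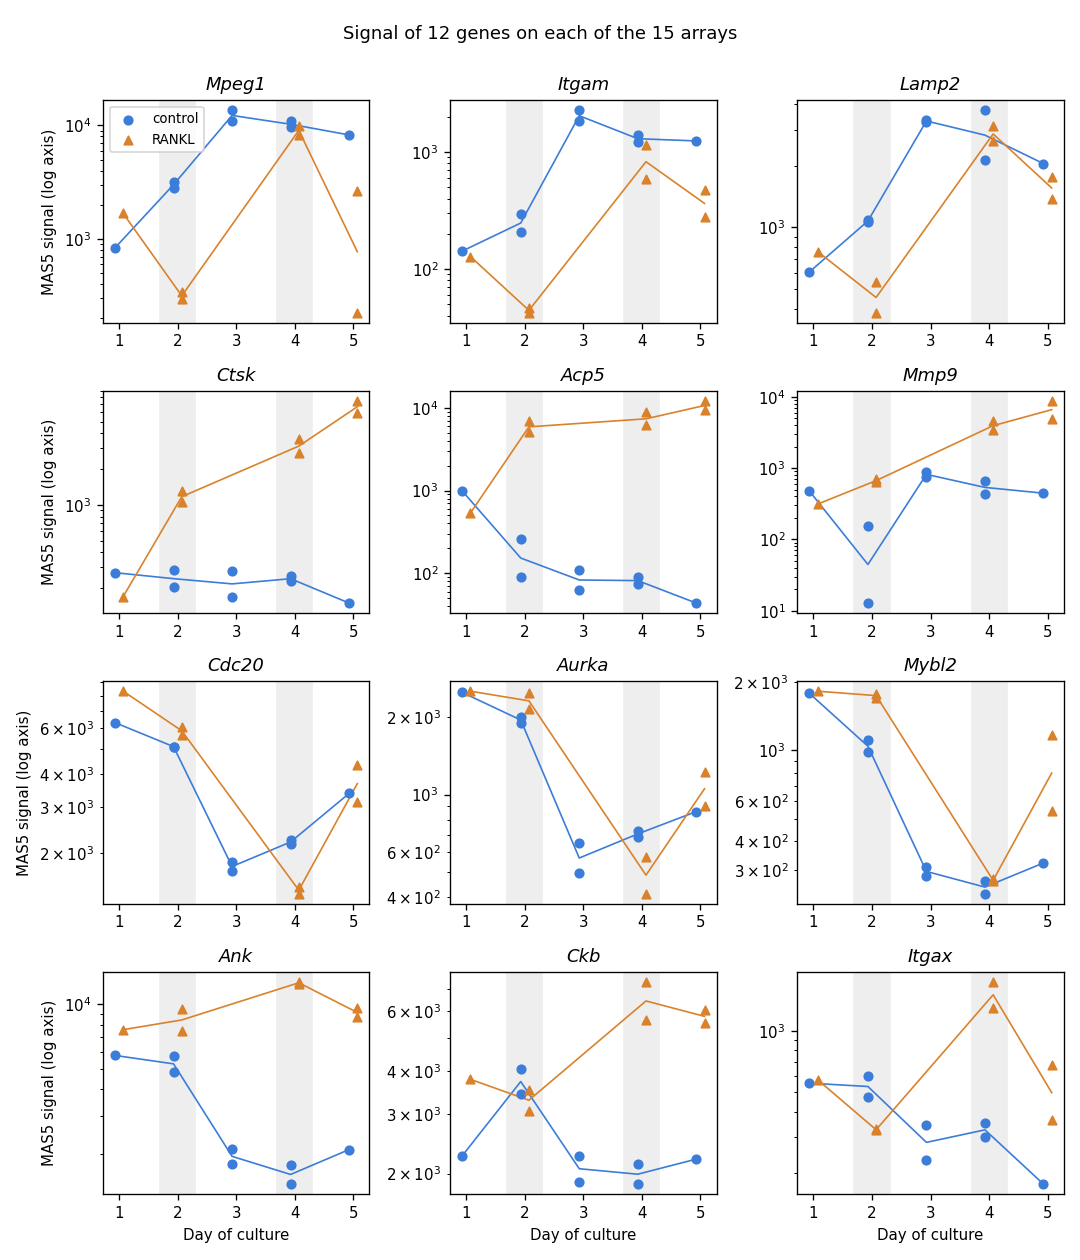
Signal of 12 genes on each of the 15 arrays (log axis) against day of culture, with RANKL arrays as triangles and control arrays as circles; lines join the group means on the log scale and grey bands mark days 2 and 4. Among the arrays of days 2 and 4, Mpeg1, Itgam and Lamp2 are lowest at RANKL day 2, and Ctsk, Acp5 and Mmp9 are higher with RANKL at day 4. Between these days Cdc20, Aurka and Mybl2 fall in both treatments, and Ank, Ckb and Itgax part between treatments.

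Falls outnumbered rises among proteasome and ribosome biogenesis genes. Of 32 proteasome genes, 14 fell and none rose in RANKL cells (median -0.63), with 3 falls in control cells (median -0.45). Psma7, a subunit of the core particle, went from 4916 and 7199 to 2142 and 1879.5, a change of -1.55 ± 0.24 (limma adjusted p = 0.00212). The proteasome count was lower without array 2 of RANKL day 2 or either array of RANKL day 4, as was the count over all genes. The list median was between -0.79 and -0.52 with 1 RANKL array left out.

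Of 42 ribosome biogenesis genes, 14 fell and none rose (median -0.50), with 9 falls and a median of -0.49 in control cells; without array 2 of RANKL day 2 there were 7. Srm, spermidine synthase, is a polyamine enzyme and not a ribosome assembly factor. It fell from 4432 and 4454 to 1809.9 and 1261 (-1.54 ± 0.23), and by 1.27 in control cells. Genes of cytosolic ribosomal proteins had 1 rise and 1 fall among 32. Over 67 oxidative phosphorylation genes the median was -0.44 in RANKL cells and -0.26 in control cells. Without array 2 of RANKL day 2 the RANKL median was -0.21. Beside 1 rise and 1 fall in control cells, 12 of the 67 genes fell and none rose in RANKL cells. That count was 1 without array 2 of RANKL day 2, 2 without array 2 of RANKL day 4, 7 without array 1 of RANKL day 4 and 23 without array 1 of RANKL day 2. Slc25a5, the mitochondrial ADP/ATP carrier, was kept in each of the 14 alternatives, with a fall of 1.00 ± 0.15 from 3364 and 3369 to 1559 and 1777, beside -0.10 in control cells.

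Heat shock genes had 7 falls and 1 rise among 27. Hspa1b, an inducible HSP70, fell from 688 and 507 to 112 and 77.2, a change of -2.31 ± 0.32 (limma adjusted p = 0.0013). Control cells went from 302 and 253 to 182 and 227, a change of -0.39 that did not pass. Stip1, a co-chaperone of HSP70 and HSP90, fell by 1.48 ± 0.20 and by 0.82 in control cells. Leaving out array 2 of RANKL day 2, array 1 of RANKL day 4 or array 2 of RANKL day 4 brought the 8 calls to 3, 5 and 4.

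Inflammatory mediators had 9 rises and 1 fall among 51, but without array 2 of RANKL day 2 only 2 calls were made, and without array 1 of RANKL day 4 only 4. Tnf, tumour necrosis factor, went from 509.6 and 308 to 4214 and 1367, a rise of 2.51 ± 0.56 (limma adjusted p = 0.0136) that was lost without array 2 of RANKL day 2 (2.17) or array 1 of RANKL day 4 (1.70). Tnfrsf1b, its second receptor, rose by 2.51 ± 0.41 in RANKL cells and by 2.28 in control cells. Saa3, an acute-phase protein, differed in size: RANKL cells went from 32.4 and 32.6 to 179.5 and 174.6 (change 1.70, limma adjusted p = 0.0812) and control cells from 59.2 and 80.6 to 1522 and 1377 (change 3.87, passed), although the difference did not pass (limma adjusted p = 0.548).

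Among stress genes, Atf5 and Atf3 rose by 2.36 ± 0.61 and 2.31 ± 0.65, with both calls lost with each RANKL array left out (2.14 to 2.58 and 2.14 to 2.49), and the list of 41 had 4 rises and 2 falls. No call was made in it without array 2 of RANKL day 2, and 2 or 3 were made with another RANKL array left out. With all arrays, calls in the stress list were about as frequent as over all genes. Gstt1, a glutathione transferase, fell from 193 and 196 to 51.5 and 22.4 in RANKL cells (-1.75 ± 0.40) and was at most 19.5 in control cells. Its call was lost without array 1 or 2 of RANKL day 2 or array 2 of RANKL day 4, with changes of -1.76 to -1.44. Ifi202b, an interferon-inducible gene, rose from 140.2 and 128 to 861 and 1338, a change of 2.74 ± 0.34 (limma adjusted p = 0.000889), with 0.47 in control cells; the 39 interferon response genes otherwise had 1 further rise, Ifi204, lost in 8 of 14 alternatives, and no fall. Aldoc, a glycolytic aldolase, rose by 1.62 ± 0.27, while 3 other genes of the 20 in the glycolysis list fell; no gene of the list fell without array 2 of RANKL day 2, and 1 fell without either array of RANKL day 4.

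**Figure D3:**
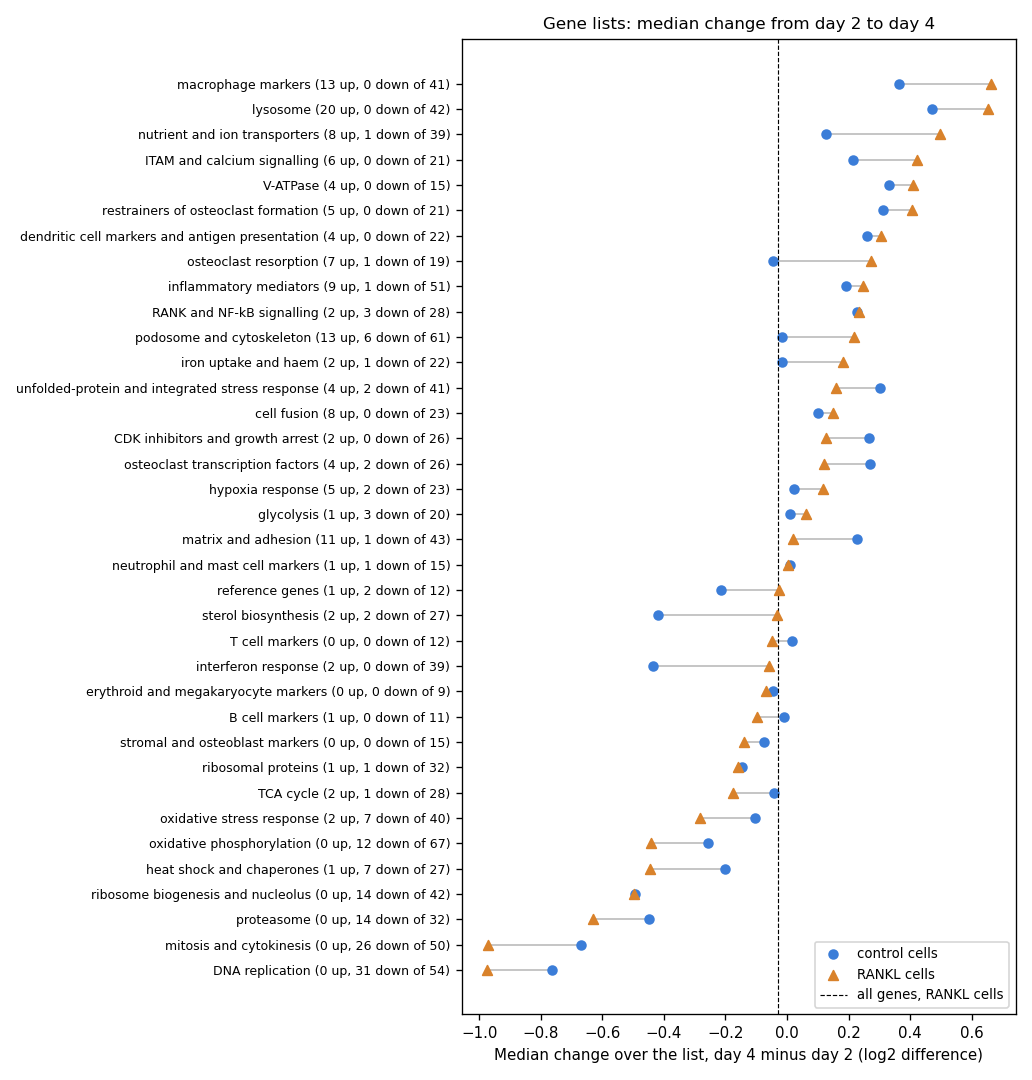
Median change from day 2 to day 4 over each of 36 gene lists, as a log2 difference, in RANKL cells (triangles) and control cells (circles); labels give the RANKL calls in each direction and the genes represented. The dashed line is the median over all genes in RANKL cells, -0.03. Macrophage and lysosome lists lie highest and DNA replication and mitosis lists lowest in RANKL cells, and control cells lie on the same side of zero in these 4 lists.

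Set beside the control cells, most of the RANKL changes had the same sign. Of the 709 genes that rose, 663 (93.5%) were also higher at day 4 in control cells, where 49.2% of all genes were, and 175 (24.7%) passed there too. Those 175 are 73.2% of the 239 genes that rose in control cells. Of the 532 that fell, 512 (96.2%) had the same sign and 142 (26.7%) passed in control cells, which is 73.2% of the 194 control falls. In control cells 5.25% of genes passed, 433 in all, with 239 higher (2.90%) and 194 lower (2.35%), and with 1 control array left out between 30 and 147 genes passed.

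The median RANKL rise was 1.17, with 0.62 in control cells for the same genes, and the falling genes dropped by a median of 1.00, with -0.61 in control cells. Read the other way, genes that rose in control cells had a median of 1.26 there and 1.15 in RANKL cells. Genes picked in 1 treatment show larger changes in that treatment by the choice itself. Across the 8251 genes the changes of the treatments had a Pearson correlation of 0.647 and a Spearman correlation of 0.559, a description over genes from 4 and 4 arrays scaled alike.

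**Figure D4:**
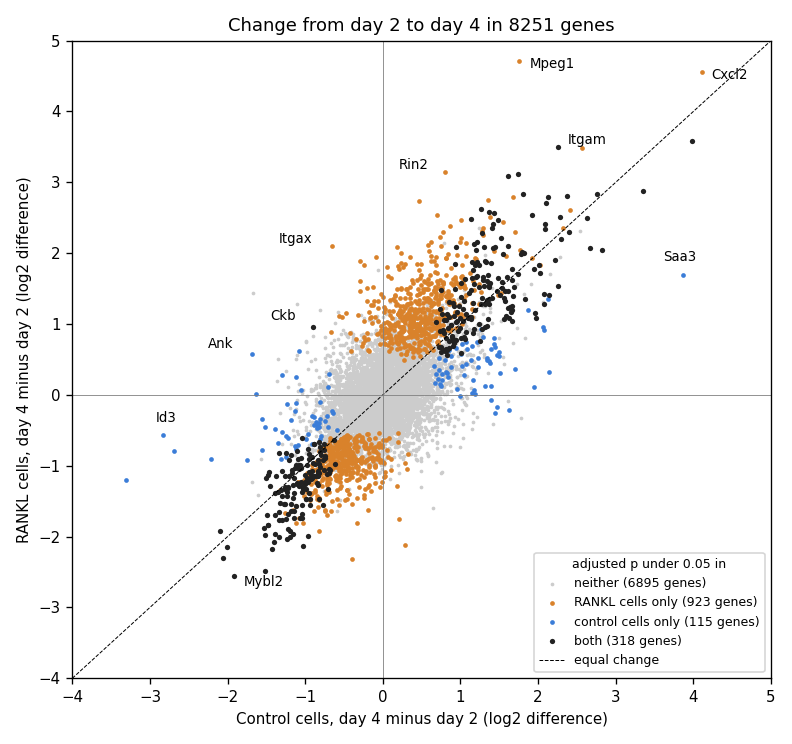
Change from day 2 to day 4 of 8251 genes in control cells (x axis) and RANKL cells (y axis), both as log2 differences; colours mark which treatment passed the threshold. Most coloured points lie in the quadrants of equal sign, and Ank, Ckb and Itgax lie above the axis on the left.

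The difference between the treatments was tested as the RANKL change minus the control change, which uses the same 8 arrays. It called 1 gene of 8251 (0.0121%), Ank, through 1 of 12422 probe sets (0.00805%), while 924 probe sets had an unadjusted p under 0.05. Of the genes that changed in RANKL cells, 232 of the 709 rises and 97 of the 532 falls were among genes with an unadjusted p under 0.05 for the difference. These genes were picked by the RANKL change, which is part of the difference, so the choice itself raises these counts. Differences of either sign were counted, and no conclusion is drawn from them. The median standard error was 0.37 for the difference and 0.26 for the change in RANKL cells.

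Ank encodes a membrane protein that exports pyrophosphate, an inhibitor of mineral formation. RANKL cells gave 9447 and 7511 at day 2 and 12409.8 and 12694 at day 4. Control cells gave 5739.6 and 4823 at day 2 and 1449 and 1783 at day 4. RANKL cells were above control cells on both days, and the gap widened as the control signals fell. The change was 0.57 ± 0.19 in RANKL cells (limma adjusted p = 0.0716) and -1.69 in control cells (limma adjusted p = 0.00181). The difference was 2.26 ± 0.27 (limma adjusted p = 0.0344), between 2.10 and 2.43 in the alternatives, with the call lost in 13 of 17.

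Ckb, the brain-type creatine kinase that buffers ATP, was the 1 gene called in opposite directions. It rose from 3059.9 and 3531 to 5651 and 7333 in RANKL cells (0.96 ± 0.19, limma adjusted p = 0.00649) and fell from 3424 and 4061.5 to 2130.0 and 1861.5 in control cells (-0.89, limma adjusted p = 0.0237). The treatments overlapped at day 2 and were apart at day 4. The difference of 1.86 ± 0.26 did not pass (limma adjusted p = 0.0851).

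Itgax, described above, had a difference of 2.76 ± 0.41 (limma adjusted p = 0.0851), and Egr2, an early growth response factor, had 2.07 ± 0.31 with the same adjusted p. Id3, an inhibitor of helix-loop-helix factors, went from 995 and 1034 to 635.5 and 712 with RANKL and from 1697 and 1677 to 249 and 175 without it, and its difference was 2.27 ± 0.38 (limma adjusted p = 0.196). Id2 and Id1, of the same family, fell by 3.31 and 2.69 in control cells and changed by -1.20 and -0.80 in RANKL cells, where neither passed. Ckb, Itgax and Egr2 are described here because of their p-values for the difference.

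The arrays of days 1, 3 and 5 were set beside those of days 2 and 4. The single day 1 arrays lay on the day 2 side. Of the 709 rising genes, 79.4% with RANKL and 91.3% without it were nearer RANKL day 2 than RANKL day 4. For the 532 falling genes these shares were 82.5% and 91.9%. The control day 5 array lay on the day 4 side, with 77.6% of the rising and 74.2% of the falling genes nearer RANKL day 4. Day 1 arrays were taken 1 day after medium, and the day 5 arrays of both treatments 2 days after it. The part of medium in these positions was not tested. At control day 3, 636 of the 663 rising genes of shared sign (95.9%) and 493 of the 512 falling genes (96.3%) were nearer their control day 4 than their control day 2 level. At RANKL day 2, 600 of the 709 rising genes (84.6%) were below control day 2, with a median gap of -0.42, and at RANKL day 4 the median gap to control day 4 was 0.13. Among the 532 falling genes, 418 (78.6%) were above control day 2, with gaps of 0.20 and then -0.20. The RANKL arrays of these days chose the genes, so these shares are a description.

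At RANKL day 5 the arrays parted. On array 1, 165 of the 709 rising genes (23.3%) and 132 of the 532 falling genes (24.8%) were nearer RANKL day 2 than RANKL day 4. On array 2 these were 286 (40.3%) and 269 (50.6%). Mpeg1, for example, was at 2649 and 225 on the RANKL day 5 arrays, and Ctsk was at 5915 and 7481 there.

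Apart from the B cell list, markers of cell types other than macrophages were mostly dim on the 8 arrays. Under 100 units on each of them were 11 of 15 stromal and osteoblast genes, 8 of 12 T cell, 4 of 11 B cell, 12 of 15 neutrophil and mast cell and 6 of 9 erythroid and megakaryocyte genes. Of all 8251 genes, 2590 were under 100 on each of the 4 RANKL arrays. The stromal list summed to 1724 to 2137 units at RANKL day 2 and 1601 to 1746 at RANKL day 4. Above 100 on each of the 8 arrays were Col1a1 and Col1a2 of that list, Cd4 and Ptprcap of the T cell list, and Ighm and Ms4a1 of the B cell list. No stromal, T cell or erythroid gene passed in RANKL cells; Ighm and Mcpt1 rose and Kit fell, and each of these calls was lost in 4 or more alternatives. Reference genes had 1 rise, Ywhaz, and 2 falls, Rpl13a and the annotated Actb probe set that its 3′ control probe set did not follow, among 12, with the calls of Ywhaz and Rpl13a lost without array 2 of RANKL day 2 (0.69 and -0.67).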

How the data were processed

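Signals were measured on Affymetrix arrays of 12488 probe sets. Per the submitters' processing notes, the authors computed the deposited intensity values with MAS5, whose version is not given in the sources used here. The mean signal after trimming 2% at each end was 500 units on every array. The 66 control probe sets were left out and 12422 were tested. GEO's platform annotation gave 10833 of these 1 gene, 396 several and 1193 none, and the brightest probe set, by mean log2 signal, stands for each of 8251 genes.

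The log2(signal + 32) values of 15 arrays in 9 groups of treatment and day were fitted with limma 3.58.1 in R 4.3.3 (lmFit and eBayes with trend, 6 residual and 5.39 prior degrees of freedom). Tests were two-sided with Benjamini-Hochberg adjustment at 0.05, for the contrasts RANKL day 4 minus day 2, control day 4 minus day 2, and their difference. The code was tested on simulated data. The number of arrays limits the precision, and no depth applies to arrays.

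Named genes are the 15 largest rises and 15 largest falls in RANKL cells, the largest 8 each way in the difference and 5 each way in control cells, up to 4 genes per list, and a panel of 33. Members and the 36 lists were chosen with earlier results of these data known, and lists are described by counts and medians without a test. Alternatives were other pseudocounts, quantile normalization, the brighter 50% of probe sets, no trend, a replicate block, fewer arrays and each array left out, and after seeing the data a beta-actin ratio covariate and omission of RANKL day 5 array 2.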

Additional observations from a re-analysis of the deposited data

Results flagged for a closer look

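Ank stood out because its change from day 2 to day 4 differed between treatments by a test of the difference itself. The RANKL change minus the control change was 2.26 ± 0.27 on the log2 scale (limma adjusted p = 0.0344), with 0.57 in RANKL cells and -1.69 in control cells. The call was kept with pseudocounts of 1 and 100, on the brighter 50% of probe sets and without RANKL day 5 array 2, and was lost in the other 13 of 17 alternatives, with values of 2.10 to 2.43. The cause was not tested. Groups of 2 arrays are too small for a test of single outlying arrays.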

How the results depend on the processing

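No named gene that passed changed sign under the alternatives run; of those that did not pass, 13 of 51 did in the RANKL comparison, 34 of 114 in the control comparison and 44 of 182 in the difference. The RANKL comparison called 1556 probe sets; with the 4 RANKL arrays alone it called 853, and with 1 RANKL array left out between 541 and 1335, the fewest without array 2 of RANKL day 2. Its other alternatives gave 1385 to 1844, and between 76.5% and 98.4% of each alternative's calls were shared with the 1556. The share of higher calls was 53.9% to 60.8%. The control comparison called 555 probe sets, against 879 on the brighter 50%, 294 with the beta-actin ratio as covariate, and 36 to 189 with 1 control array left out. The difference called 1 probe set; it called 5 on the brighter 50%, 3 with the 8 arrays of both days alone, 4 without RANKL day 5 array 2, and 0 with quantile normalization, without the trend, with the covariate, with the replicate block and with each left-out array (0 to 0), while 924 had an unadjusted p under 0.05 in the reported fit. Deviations of same-numbered arrays correlated between -0.17 and 0.12 over 15 pairs of groups (-0.02 for RANKL day 2 and day 4). Such values cannot show whether same-numbered arrays shared a culture, which is not stated. A replicate block called 1449 probe sets in RANKL cells and 468 in control cells. Dimmer probe sets were not in the fit of the brighter 50% and so had fewer than 14 alternatives. Of 183 named genes, 132 passed in RANKL cells. Of these, 63 passed in every alternative they had, as did 23 of the 30 largest changes. The causes were not tested. Signals near the added 32 units, such as those of Calcr and Itgb3, limit what can be said of dim genes.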

Other observations

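Other lists held calls in RANKL cells too. In the iron, sterol biosynthesis and TCA cycle lists given below, calls were no more frequent than over all genes. The matrix and adhesion list had 11 rises and 1 fall among 43 genes, with a median of 0.02, beside 7 rises and 1 fall in control cells; without array 2 of RANKL day 2 it had 7 calls in place of 12. Nutrient and ion transporters had 8 rises and 1 fall among 39, but with 1 RANKL array left out they had between 1 and 5 calls. Dendritic cell markers and antigen presentation had 4 rises and no fall among 22. Cd74, the invariant chain of class II antigen presentation, went from 1984 and 2133 to 10976.5 and 4646 in RANKL cells, a rise of 1.78 ± 0.34 (limma adjusted p = 0.00618), and it rose by 1.95 in control cells. Gas6, a ligand of TAM receptors found in growth-arrested cells, went from 48.7 and 68.4 to 404 and 267, a rise of 2.00 ± 0.29 (limma adjusted p = 0.0017), with 1.81 in control cells. It was 1 of 2 rises, with no fall, among 26 genes of CDK inhibitors and growth arrest. In that list, calls were less frequent than over all genes.

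Oxidative stress genes had 2 rises and 7 falls among 40, and the 9 calls became 3 to 7 with 1 RANKL array left out. Prdx4, a peroxiredoxin of the endoplasmic reticulum, fell from 2904 and 3929 to 1457.5 and 1315 (-1.27 ± 0.20, limma adjusted p = 0.00247), and by 0.83 in control cells. Of 22 genes of iron uptake and haem, 2 rose and 1 fell. Slc11a2, the divalent metal transporter DMT1, rose by 0.96 ± 0.16 and Alad, an enzyme of haem synthesis, fell by 1.19 ± 0.20, with 1.31 and -0.94 in control cells. The hypoxia list had 5 rises and 2 falls among 23, and no call without array 2 of RANKL day 2. Ndrg1, a hypoxia-responsive gene, went from 336 and 340.1 to 2293 and 1620 (2.41 ± 0.48), and lost its call without array 2 of RANKL day 2 (2.41) or array 1 of RANKL day 4 (2.16). Sterol biosynthesis had 2 rises and 2 falls among 27 and the TCA cycle 2 rises and 1 fall among 28, and neither had a call without array 2 of RANKL day 2. Of the panel genes not yet given, Myc, the growth-promoting factor, read 813 and 784 at RANKL day 2 and 214 and 363 at RANKL day 4, a change of -1.41 that did not pass (limma adjusted p = 0.112). Jun, an AP-1 subunit, changed by 0.96 and Mmp14, a membrane-bound collagenase, by -0.24, and neither passed.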
